A study of Mus musculus with 5 samples.

Results

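Ifitm2, Ifitm3, Ly6e, Bst2, Ifi27 and Ifi27l2a are 6 genes for membrane proteins of the antiviral response, and they were chosen by name out of the 32285 genes of the count matrices. All 6 symbols were found, each on 1 row. Their levels were read per cell class and per library in 5 single-nucleus RNA-seq libraries, and libraries of the R241E genotype were set against libraries of the WT genotype.

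Each library came from 1 mouse. The R241E mice (2 libraries) were Tmem119-creERT2-Cgas wt/R241E, with 1 copy of the DNA sensor cGAS carrying a substitution that weakens its hold on nucleosomes, and the WT mice (3 libraries) were Tmem119-creERT2-Cgas wt/wt. By the study's methods tamoxifen was given to R241E mice as young adults. It switches the allele on where the Tmem119 driver is active, mainly in microglia and brain macrophages. The driver was present in both groups, but the methods do not state whether the WT mice were given tamoxifen or were of the same age. For the controls the titles and methods were followed, although 1 passage of the study's text names heterozygous animals. A text on injections of H151 or DMSO stands with every sample, but no label ties a library to either, so it was not used. The labels give hippocampus as tissue and microglia as cell type, whereas the study's methods name brain tissue. The sort kept nuclei without the neuronal protein NeuN and, by the study's methods, without Olig2 of the oligodendrocyte lineage, yet 12 classes of cell, neurons and oligodendrocytes among them, were found.

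IFITM proteins, encoded by Ifitm2 and Ifitm3, sit in the plasma membrane and endosomes and hinder the fusion of enveloped viruses with the cell. Tetherin, the product of Bst2, holds budding virus particles at the cell surface, and Ly6e encodes a surface protein with a lipid anchor that is also known as a marker of lymphocytes. Ifi27 and Ifi27l2a encode small hydrophobic proteins of intracellular membranes, and Ifi27l2a is a strongly interferon-induced gene in mice. cGAS makes a messenger that activates STING, and the type I interferon released downstream acts through its receptor on genes with the interferon-stimulated response element (ISRE) in their promoters.

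Ifitm2 (ENSMUSG00000060591) lies on chromosome 7 from 140954837 to 140959686 and Ifitm3 (ENSMUSG00000025492) on the same chromosome from 141009590 to 141010744, in RefSeq coordinates of GRCm38.p6, the assembly of the mm10 build. Bst2 (ENSMUSG00000046718) lies on chromosome 8 from 71534255 to 71537472 and Ly6e (ENSMUSG00000022587) on chromosome 15 from 74955025 to 74959904. Ifi27 (ENSMUSG00000064215) spans 103434189 to 103440245 on chromosome 12, wholly inside the span of Ifi27l2a (ENSMUSG00000079017), 103433873 to 103443680. All 6 are protein coding. The GENCODE annotation puts Ifi27 on the plus strand and Ifi27l2a on the minus strand, and since it is not stated whether counting used strand, reads where both genes lie cannot be assigned with certainty. Of the 90-base words of Ifi27l2a's spliced transcripts, 4.46% also occurred on the opposite strand in Ifi27. No such word of Ifitm3 was found in another gene on the same strand, whereas 15.9% of those of Ifitm2 were, in the predicted genes Gm11951, Gm45717 and Gm8865. On the opposite strand, 38.5% of the words of Ifitm3 occurred in Gm57251, 8.75% of those of Ifitm2 in Gm74434 and 6.04% of those of Ly6e in Gm62552. Introns, which nuclear RNA also contains, were not part of that count.

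The promoter windows of Ifitm3, Bst2 and Ifitm2 are shown because each holds the letters of an ISRE. Each window of 300 bases spans the start of a RefSeq transcript, lying mostly before it, in GRCm38.p6 and on the minus strand, at chr7:141010695-141010994, chr8:71537423-71537722 and chr7:140955912-140956211. Capitals mark matches to the ISRE letters, GAAA followed after any 2 bases by GAAA, searched on both strands.
Ifitm3: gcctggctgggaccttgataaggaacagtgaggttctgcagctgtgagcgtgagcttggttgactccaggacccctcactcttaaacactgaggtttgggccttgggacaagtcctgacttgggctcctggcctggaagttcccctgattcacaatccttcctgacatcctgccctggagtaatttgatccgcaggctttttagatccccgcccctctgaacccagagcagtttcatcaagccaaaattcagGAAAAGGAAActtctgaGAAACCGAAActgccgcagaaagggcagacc
Bst2: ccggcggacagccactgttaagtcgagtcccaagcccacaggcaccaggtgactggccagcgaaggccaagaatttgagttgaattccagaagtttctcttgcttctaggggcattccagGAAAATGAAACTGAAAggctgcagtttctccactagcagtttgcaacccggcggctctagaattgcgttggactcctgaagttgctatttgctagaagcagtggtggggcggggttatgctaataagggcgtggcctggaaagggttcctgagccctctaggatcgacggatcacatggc
Ifitm2: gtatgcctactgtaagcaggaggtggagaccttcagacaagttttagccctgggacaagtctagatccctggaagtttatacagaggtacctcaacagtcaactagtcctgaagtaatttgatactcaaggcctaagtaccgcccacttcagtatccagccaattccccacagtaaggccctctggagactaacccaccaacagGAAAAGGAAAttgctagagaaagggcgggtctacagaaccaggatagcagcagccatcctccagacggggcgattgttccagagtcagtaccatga
In Ifitm3, GAAAAGGAAA and GAAACCGAAA began 2 and 19 bases after the start. In Bst2, GAAAATGAAA and GAAACTGAAA overlapped and began 130 and 124 bases before it, and in Ifitm2 GAAAAGGAAA began 46 bases before it. Such a match was found in 3.443% of the 32851 promoter windows of the same length. The letters TTCNNNGAA, known as the gamma-activated site, were present in the windows of Ifitm3 and Bst2 and in 8.298% of all windows. The windows of Ly6e, Ifi27 and Ifi27l2a were not analysed here.

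The libraries held 1381 to 2490 nuclei and 4183709 to 10130667 UMIs (unique molecular identifiers, counted once per captured RNA molecule). The study's limits on genes, UMIs and mitochondrial share left 9505 of 9748 nuclei, with a median of 2125.5 to 3364 UMIs per nucleus. Clusters were formed without the 6 genes and named from marker genes, and in 11 classes the summed level of the class's own markers was higher in every library than in any other class. There were 5378 microglia, 343 border-associated macrophages, 205 monocytes or neutrophils, 193 lymphocytes, 60 endothelial cells, 607 mural cells, 509 fibroblasts, 571 astrocytes, 188 tanycytes, 663 oligodendrocytes and 735 neurons. A further 53 pituitary cells, 51 of them from R241E replicate 1, are not described. Of the 188 tanycytes 133 came from that library as well, and whether the tissue taken differed between libraries was not tested. At most 2 barcodes were shared by any pair of libraries. Cgas stood at 83.2 and 87.9 CPM (counts-per-million, the UMIs of a gene relative to all UMIs of the class in that library) in R241E microglia, beside 66.7, 72.4 and 74.4 CPM in WT, but counts per gene do not show the substitution itself.

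In microglia, 4 of the 6 genes were higher with R241E: Ifi27l2a, Ifitm3, Bst2 and Ly6e. Ifi27 did not pass the test, and Ifitm2 had too few UMIs for one. The test was edgeR's quasi-likelihood test on UMIs summed per library, with p-values adjusted by Benjamini-Hochberg over all 12727 genes tested and a call at an adjusted p under 0.05, and 6.04% of those genes were called higher. Over the 5 genes tested the median log2 fold change was 2.63, beside -0.0046 over all genes. In such sums, more RNA per nucleus and more nuclei that make it cannot be told apart. The microglia of the genotypes also came from different clusters: clusters led by Ly86, Ikzf1 and Siglech (cluster 1), by Ctss, Ly86 and C1qb (cluster 8) and by Ifi204, Epsti1 and Ly86 (cluster 14) held 631, 358 and 339 R241E nuclei and 166, 58 and 15 WT nuclei, whereas clusters 2 and 17, both led by Siglech and Ikzf1, held 143 and 59 R241E nuclei and 1443 and 2166 WT nuclei.

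Ifitm3 stood at 49.9 and 54.7 CPM with R241E, against 1.21, 2.31 and 5.10 CPM in the WT libraries, from 159 and 79 UMIs against 3, 10 and 17. The groups were far apart, with a difference of 4.10 on the log2 scale (SE 0.29, adjusted p = 1.07e-07 with edgeR). The WT levels of Ifitm3 alone would not have passed the filter on low counts, so it entered the test through R241E. Its neighbour Ifitm2 gave 5 and 4 UMIs in R241E microglia and 0, 6 and 5 in WT, so that a difference was not detectable at this depth. Bst2 was at 89.5 and 113.5 CPM with R241E, against 11.7, 14.3 and 21.3 CPM in WT. The lowest R241E library was thus well above the highest WT library, as in 20.4% of all genes tested, with a difference of 2.63 on the log2 scale (SE 0.19, adjusted p = 1.42e-07 with edgeR).

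Ly6e reached 275 and 407 CPM in R241E microglia and 82.5, 111 and 141 CPM in WT. The R241E libraries differed from each other more than in the other 3 genes called, but both lay above all WT libraries, with a difference of 1.56 on the log2 scale (SE 0.17, adjusted p = 2.03e-05 with edgeR). Ifi27l2a was at 53.1 and 62.3 CPM with R241E, against 0.809, 2.075 and 1.80 CPM in WT, where the 3 libraries together held 17 UMIs. Of the 6 genes it had the largest log2 fold change in microglia, 5.04 (SE 0.26, edgeR adjusted p = 3.54e-09), and it ranked 24th by p and 30th by fold change among all genes tested. It passed the filter on low counts through the R241E libraries alone, so its p and ranks are given without support drawn from them. It also belongs to the list of 28 interferon genes with which the study scored microglia, drawn by its methods from earlier publications. Ifi27, whose span lies inside that of Ifi27l2a, stood at 56.2 and 52.6 CPM with R241E, against 40.4, 53.0 and 54.6 CPM in WT. These values overlapped, and the log2 fold change of 0.12 (SE 0.15, adjusted p = 0.751 with edgeR) did not pass the test. Each of the 4 calls in microglia was made under all 15 alternative settings, with adjusted p-values up to 0.000272.

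**Figure D1:**
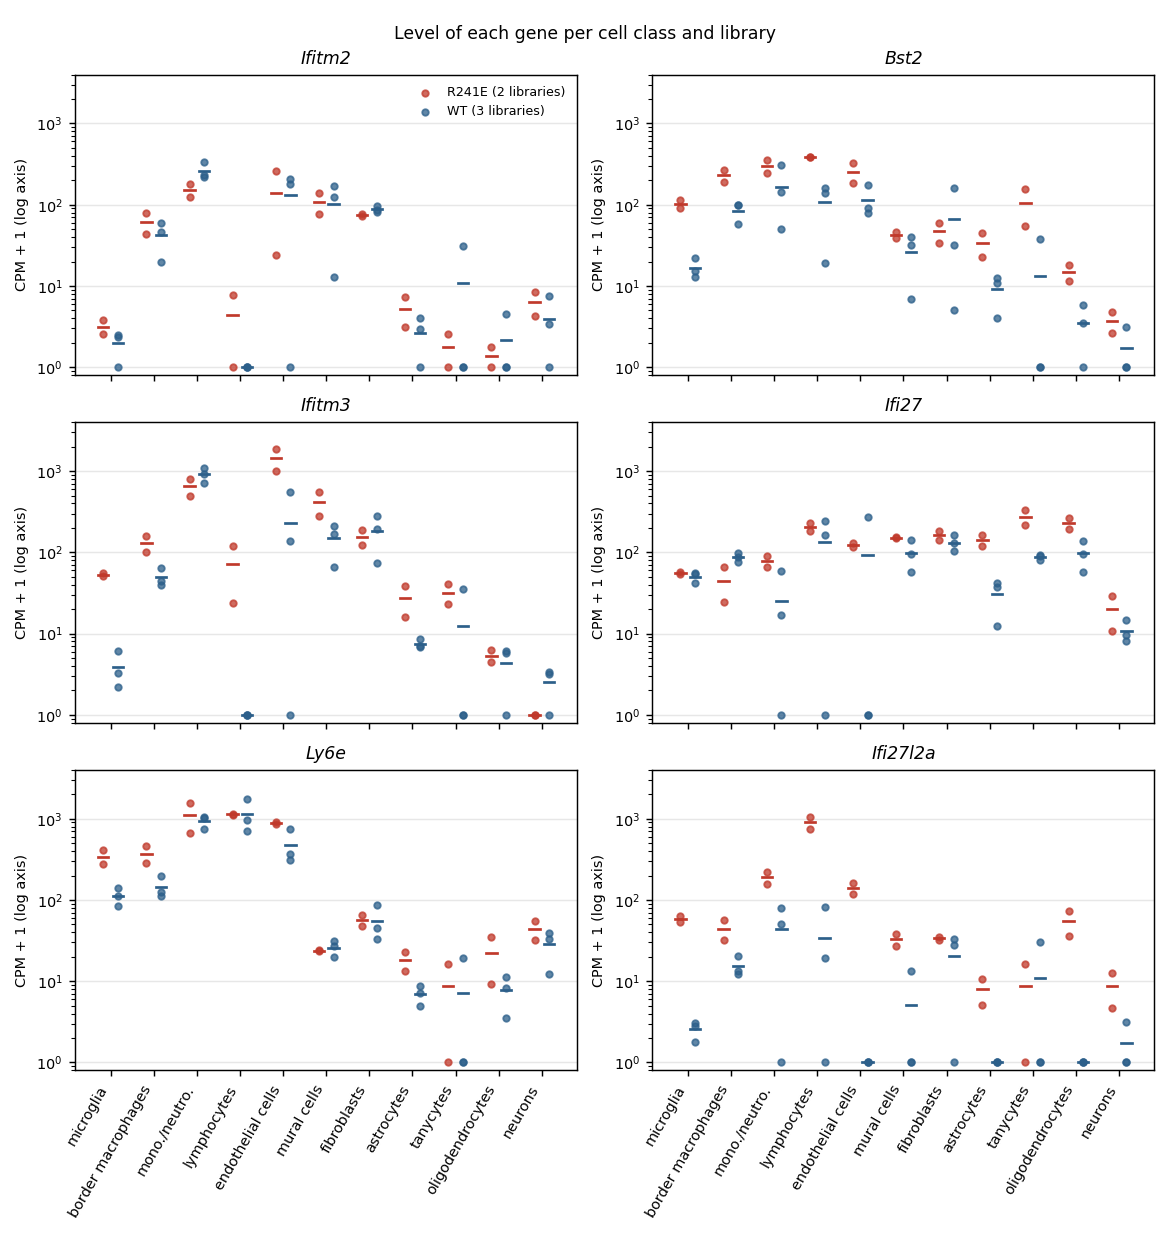
Level of each gene (CPM + 1, log axis) in 11 cell classes, with 1 point per library and a bar at the mean, for 2 R241E libraries in red and 3 WT libraries in blue. In microglia the R241E points of Ifitm3, Ly6e, Bst2 and Ifi27l2a lie above the WT points, whereas those of Ifi27 overlap with WT, and in lymphocytes Ifi27l2a reaches 1041 CPM with R241E.

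Between clusters of R241E microglia the genes were unevenly spread. Ifitm3 stood at 93.0 and 153 CPM in cluster 14, at 71.8 and 55.9 CPM in cluster 8 and at 19.8 and 13.8 CPM in cluster 1. Ly6e was instead highest in cluster 8, at 434 and 731 CPM, beside 352 and 417 CPM in cluster 14 and 174 and 211 CPM in cluster 1. Ifi27 was spread more evenly, at 61.7 and 58.2 CPM in cluster 8, 53.0 and 19.1 CPM in cluster 14 and 51.6 and 59.7 CPM in cluster 1. Cluster 2 held at least 69 nuclei from every library, so the genotypes could be set side by side within it. There Ifi27l2a was at 34.6 and 21.8 CPM with R241E, against 0, 3.32 and 1.60 CPM in WT. Bst2 was at 40.3 and 43.5 CPM against 19.1, 17.25 and 19.2 CPM. In both cases the R241E values lay above the WT values, but how many of all genes did so here was not counted. The R241E values come from 69 and 74 nuclei. Ly6e in that cluster was at 115 and 196 CPM with R241E, against 129, 117 and 148 CPM in WT, so that the libraries overlapped. These are descriptions with no test, since interferon genes other than the 6 helped to form the clusters.

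Counted per nucleus, transcripts of these genes were sparse. After each microglial nucleus was thinned to 1000 UMIs, which left out 9 to 64 nuclei per library, Ly6e was seen in 22.0% and 26.7% of R241E microglia and in 8.97%, 10.9% and 13.6% of WT microglia. Bst2 was seen in 8.22% and 9.24% with R241E and in 1.11%, 1.45% and 2.45% with WT. For Ifitm3 the shares were 4.61% and 4.22% against 0.221%, 0.415% and 0.433%, the 95% exact binomial intervals of the R241E libraries being 3.40 to 6.11% and 2.63 to 6.37%. For Ifi27l2a they were 5.92% and 5.22% against 0.111%, 0.0691% and 0.144%, whereas Ifi27 was seen in 5.72% and 6.22% of R241E microglia and in 3.77%, 6.01% and 5.48% of WT microglia. The first 4 genes thus separated the genotypes without overlap and Ifi27 did not, although with 2 against 3 libraries an exact permutation test cannot go below p = 0.1, the value that each of these 4 had (two-sided). How many of all genes separated the genotypes in these shares was not counted. The intervals cover counting error only. Unthinned, the mean shares were 48.6% against 22.1% for Ly6e, 20.0% against 3.67% for Bst2, 9.56% against 0.552% for Ifitm3, 13.3% against 0.368% for Ifi27l2a and 13.9% against 11.3% for Ifi27, whose libraries then did not overlap (exact permutation p = 0.2).

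In neurons thinned to the same depth, where these genes were low, Ifitm3 and Bst2 were seen in none of the 97 to 268 nuclei of each library, which at this depth allows a share of nuclei with a UMI of up to 1.12 to 3.09% (3 counts of the nuclei, for counting error only) and sets no limit on the nuclei that express them. Ly6e was seen in 1.12 to 8.15% of neurons, below its share in R241E microglia, and Ifi27 in 0.373 to 2.22%. Within microglia, 37.1% and 41.4% of the R241E nuclei and 13.4%, 18.1% and 20.5% of the WT nuclei had a UMI of at least 1 of the 6 genes. Exactly 2 of the genes were seen together in 6.42% and 8.03% of R241E nuclei, and 3 or more in 1.40% and 1.41%.

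The shares were also read against the UMIs of the other 27 genes of the study's interferon list in the same nucleus. Ifitm3 was seen in 3.45% and 1.80% of the R241E microglia without such a UMI and in 7.74% and 11.1% of those with 4 or more. Bst2 went from 6.21% and 8.11% to 12.5% and 12.8%, and Ifi27l2a from 4.14% and 1.80% to 7.41% and 7.69%. For Ly6e the shares were 14.5% and 27.9% in nuclei without such a UMI and 27.95% and 32.5% in those with 4 or more, and for Ifi27 they were 4.14% and 6.31% against 6.40% and 1.71%. The shares of Ifitm3, Bst2, Ifi27l2a and Ly6e were therefore higher at 4 or more such UMIs in both R241E libraries, whereas Ifi27 moved in opposite directions. In R241E nuclei without a UMI of these 27 genes, Bst2, Ifitm3, Ly6e and Ifi27l2a were still seen more often than in such nuclei of each WT library. The WT shares were 0.936%, 1.20% and 2.21% for Bst2 and 0.156%, 0.300% and 0.210% for Ifitm3. They were 9.83%, 10.6% and 12.4% for Ly6e and 0% in each library for Ifi27l2a. Ifitm2 was also above WT, from 1 nucleus in each R241E library, whereas Ifi27 overlapped. At 4 or more UMIs WT had 8 to 12 nuclei per library, too few to read.

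**Figure D2:**
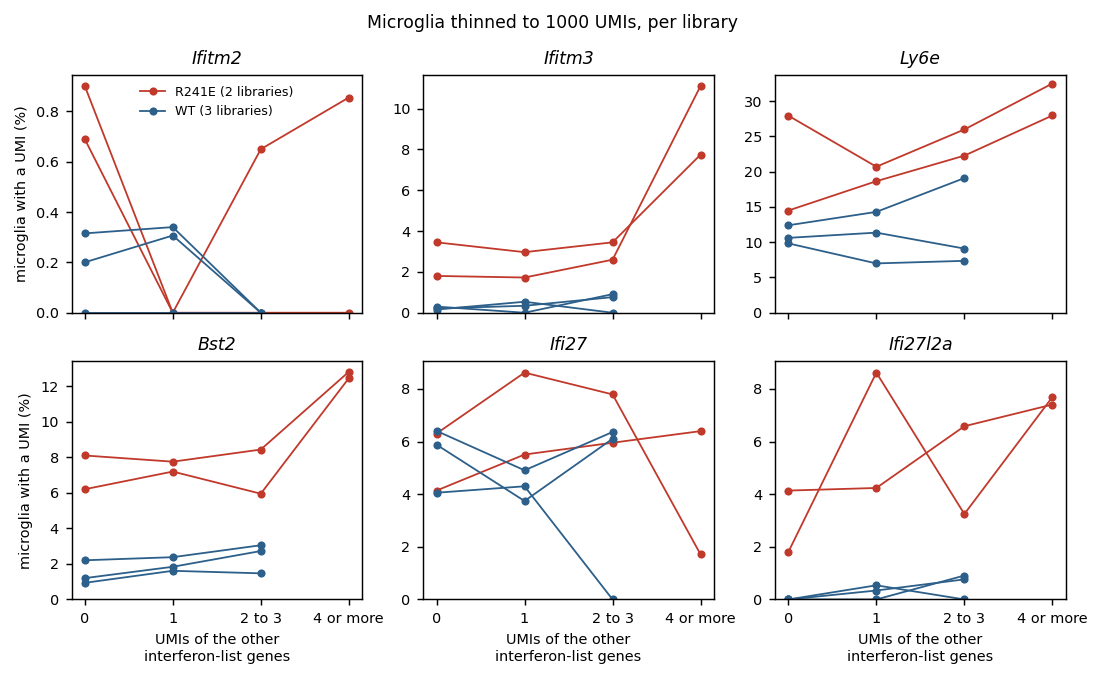
Share of microglia (per cent, each nucleus thinned to 1000 UMIs) with a UMI of each gene, by the number of UMIs of the other interferon-list genes in the nucleus, with 1 line per library and points shown from 20 nuclei. R241E libraries (red) lie above the WT libraries (blue) for Ifitm3, Ly6e, Bst2 and Ifi27l2a at each step where both are shown, and the lines of Ifi27 cross. How many of all genes would do so was not counted.

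Border-associated macrophages, brain macrophages outside the tissue proper, had higher Ly6e and Bst2 with R241E. Ly6e was at 288 and 456 CPM with R241E, against 111, 125 and 194 CPM in WT, a difference of 1.30 on the log2 scale (SE 0.27, adjusted p = 0.0161 with edgeR). Bst2 was at 190 and 267 CPM against 98.0, 56.4 and 97.0 CPM, a difference of 1.39 on the log2 scale (SE 0.31, adjusted p = 0.0217 with edgeR). In this class 0.811% of 3947 genes were called higher. With edgeR, both calls were lost without R241E replicate 2 (adjusted p = 0.0898 for Bst2 and 0.0939 for Ly6e) and without WT replicate 2 (0.240 and 0.222), that of Bst2 also without WT replicate 3 (0.0516) and that of Ly6e without WT replicate 1 (0.0926). Both were also lost with DESeq2 (adjusted p = 0.401 for Bst2 and 0.144 for Ly6e) and in edgeR after thinning to 1000 UMIs per nucleus (0.392 and 0.373). Ifitm3 stood at 101 and 157 CPM against 39.2, 43.9 and 62.8 CPM without overlap, as 11.6% of all genes did, but its log2 fold change of 1.31 did not pass the test (SE 0.39, edgeR adjusted p = 0.148). Its WT levels alone would not have passed the filter on low counts. Ifi27 was the gene with lower values here, at 64.3 and 23.6 CPM with R241E, against 98.0, 75.2 and 85.6 CPM in WT, with a difference of -0.73 on the log2 scale (SE 0.42, adjusted p = 0.720 with edgeR). Ifi27l2a had 18 and 4 UMIs in R241E and 3, 2 and 2 in WT, under the limit for a test. Ifitm2, also under it, was at 42.9 and 78.6 CPM against 58.8, 18.8 and 45.7 CPM, and its libraries overlapped.

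In monocytes or neutrophils none of the 5 genes tested was called, and 0.0542% of 1844 genes were called higher. Of the 5, Ifi27l2a had an unadjusted p under 0.05, as did 2.98% of all genes. Ifitm3 was high in both genotypes, at 498 and 795 CPM with R241E, against 1094, 912 and 719 CPM in WT. Ifitm2 stood at 125 and 177 CPM against 331, 220 and 231 CPM, the lower R241E values not passing the test (log2 fold change -0.75, SE 0.42, edgeR adjusted p = 0.996). Ifi27l2a was at 157 and 221 CPM with R241E, against 0, 78.6 and 49.6 CPM in WT, again without passing it (log2 fold change 1.95, SE 0.76, edgeR adjusted p = 0.996). It passed the filter on low counts through the R241E libraries alone, so no support is drawn from its unadjusted p. Ly6e, at 675 and 1547 CPM against 738, 1038 and 1008 CPM, and Bst2, at 243 and 353.5 CPM against 305, 141.5 and 49.6 CPM, overlapped between genotypes. This cluster was a mixture whose make-up varied between libraries: S100a8, a neutrophil gene, was at 25.45 to 3462 CPM and Cd74, a gene of antigen-presenting cells, at 5351 to 15360 CPM. Igkc, an immunoglobulin gene, was at 275 CPM in R241E replicate 1 and 21610 CPM in R241E replicate 2, against 0, 472 and 1248 CPM in WT. The part of that mixture in these values was not tested.

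Lymphocytes were too few in the WT libraries for a test, with 3, 7 and 28 nuclei against 120 and 35 in R241E. Their Ifi27l2a level was 1041 and 755.5 CPM with R241E, the highest of any class, against 0, 80.4 and 18.1 CPM in WT, from 305 and 67 UMIs against 0, 1 and 1. Bst2 was at 389 and 383 CPM with R241E, against 139, 161 and 18.1 CPM in WT, from 148 UMIs against 4 when summed over libraries. Ly6e, a known lymphocyte marker, was at 1123 and 1139 CPM with R241E, against 696, 1768 and 976 CPM in WT, so that the genotypes overlapped. Ifitm3 gave 35 and 2 UMIs with R241E and 0 in each of the WT libraries, and Ifi27 overlapped, at 184 and 225.5 CPM against 0, 241.1 and 163 CPM. Microglial markers in lymphocytes stood at 8.02 to 18.2% of their level in microglia. That share of the microglial level would give 6.59 and 6.54 CPM of Ifi27l2a in the R241E libraries.

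Among glial cells outside the myeloid classes, Ifi27 rose in astrocytes. Ifi27 was at 120 and 162 CPM in R241E astrocytes and at 36.6, 11.5 and 41.0 CPM in WT astrocytes. Both R241E libraries lay far above the WT libraries, and the log2 fold change was 2.16 (SE 0.33, edgeR adjusted p = 0.0217), in a class where 0.292% of 7876 genes were called higher. The edgeR call was lost without WT replicate 2 (adjusted p = 0.175), without WT replicate 3 (0.0553), with limma-voom (0.0791) and after thinning (0.228). A cluster led by Gpc5, Erbb4 and Gm20713 held most astrocytes of the R241E libraries and of WT replicate 1, and a cluster led by Gpc5 and Wdr17 held most of those of WT replicates 2 and 3. Within the former alone Ifi27 was at 121 and 188 CPM against 11.7, 0 and 37.0 CPM, with a log2 fold change of 3.13 (edgeR adjusted p = 0.00376) in a fit added after the data were seen. Within the latter it was at 101 and 116 CPM against 63.7, 16.5 and 42.1 CPM, with 5 nuclei in R241E replicate 1. Microglial markers in astrocytes were at 2.27 to 4.48% of the microglial level, a share that would give at most 2.44 CPM of Ifi27 in any library, and after that share was subtracted the call was kept (log2 fold change 2.21, edgeR adjusted p = 0.0415). Shares of other classes were not estimated, among them R241E tanycytes and oligodendrocytes with mean Ifi27 levels of 275 and 226 CPM.

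The other genes were at low levels in astrocytes. Bst2 stood at 21.6 and 43.7 CPM with R241E and at 3.05, 11.5 and 9.76 CPM with WT, and although these did not overlap its log2 fold change of 1.93 did not pass the test (SE 0.59, edgeR adjusted p = 0.256). It passed the filter on low counts through the R241E libraries alone. In this class 10.3% of all genes had both R241E libraries above all WT libraries. Ifitm3 gave 14 and 18 UMIs in R241E against 2, 2 and 3 in WT, Ly6e 20 and 6 against 2, 2 and 2, and Ifi27l2a 9 and 2 against 0, 0 and 0, all under the limit for a test.

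In oligodendrocytes Ifi27l2a was found in both R241E libraries, at 34.7 and 72.2 CPM from 46 and 21 UMIs, and in none of the WT libraries. Against a floor of 3 UMIs over the WT group this was at least 15.1-fold higher. The gene passed the filter on low counts through the R241E libraries alone and so had to differ, and its edgeR adjusted p of 0.0160, in a class where 0.208% of 6258 genes were called higher, is given without support drawn from it. That p was above the threshold without R241E replicate 1 (adjusted p = 0.945), R241E replicate 2 (1.00) and WT replicate 2 (0.0693), and with limma-voom (0.296). Microglial markers in oligodendrocytes were at 1.64% and 1.55% of the microglial level in the R241E libraries, a share that would give 0.872 and 0.965 CPM of Ifi27l2a. Shares of other classes were not estimated, among them R241E lymphocytes with a mean Ifi27l2a level of 898 CPM. Ifi27 in the same cells was at 192 and 261 CPM with R241E, against 93.6, 55.6 and 138 CPM in WT. These did not overlap, as for 9.28% of all genes, but the log2 fold change of 1.16 did not pass the test (SE 0.28, edgeR adjusted p = 0.296), and it was called without WT replicate 1 (0.0411) and without WT replicate 3 (0.0388). Ifitm3 had 7 and 1 UMIs against 2, 0 and 2, and Bst2 14 and 5 against 1, 0 and 2.

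Tanycytes, which line the floor of the third ventricle, had Ifi27 at 218 and 332 CPM with R241E, against 79.5, 92.0 and 88.9 CPM in WT. The log2 fold change of 1.65 did not pass the test (SE 0.55, edgeR adjusted p = 0.697), while 0.0875% of 1143 genes were called higher and 2.89%, Ifi27 among them, had an unadjusted p under 0.05. Ifi27 passed the filter on low counts through the R241E libraries alone, so no support is drawn from that unadjusted p. All but 1 of the libraries held 12 to 19 tanycytes. In neurons Ly6e was the gene with enough UMIs for a test, at 31.3 and 53.9 CPM with R241E, against 11.2, 32.4 and 38.7 CPM in WT. The libraries overlapped, and, where 0.0113% of 8887 genes were called higher and 8.51% had an unadjusted p under 0.05, the log2 fold change of 0.74 did not pass the test (SE 0.50, edgeR adjusted p = 0.766). Ifitm3 gave 0 UMIs in the neurons of both R241E libraries and 3, 1 and 0 in WT.

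**Figure D3:**
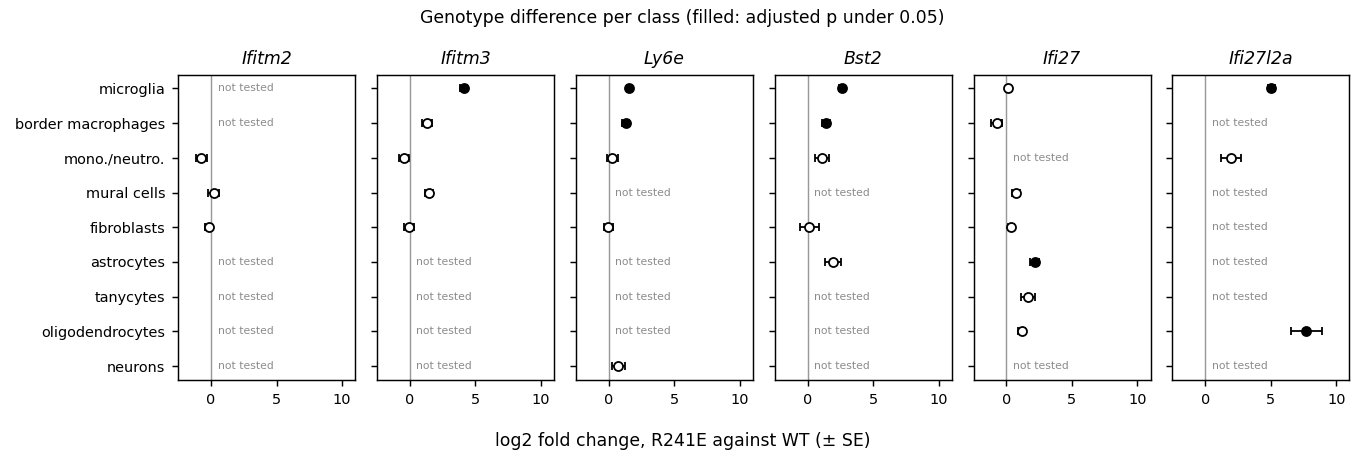
Log2 fold change of R241E against WT (± SE, edgeR) for each gene in the 9 classes tested, with filled points for an adjusted p under 0.05 and "not tested" where the gene was under the limit on low counts. Filled points are seen for 4 genes in microglia, for Ly6e and Bst2 in border-associated macrophages, for Ifi27 in astrocytes and for Ifi27l2a in oligodendrocytes, where WT held no UMI, the gene passed the limit through R241E alone and the plotted value of 7.71 depends on the prior count. In microglia, too, Ifi27l2a passed the limit through R241E alone.

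Of the vascular classes, endothelial cells had the fewest nuclei, 13 and 17 in R241E and 7, 10 and 13 in WT. Their Ifitm3 level was 996 and 1894 CPM with R241E, against 0, 136 and 549 CPM in WT, from 43 and 59 UMIs against 0, 3 and 16. All WT libraries lay below the R241E libraries, but the share of all endothelial genes that separated in this way was not counted. A fit added after the data were seen gave a log2 fold change of 2.39 that did not pass the test (SE 0.71, edgeR adjusted p = 0.978, 0% of 593 genes called higher, 3.71% with an unadjusted p under 0.05). Without WT replicate 3 the log2 fold change was 4.14 and passed it (edgeR adjusted p = 4.60e-06). Ifitm3 then passed the filter on low counts through the R241E libraries alone and so had to differ, and no support is drawn from that p. With all libraries, too, its WT levels alone would not have passed the filter. With each of the other 4 libraries left out the log2 fold change was 1.92 to 2.86. It did not pass the test without WT replicate 1 or WT replicate 2 (edgeR adjusted p = 0.993 and 0.995). With the limits on nuclei lifted, which added 1 endothelial nucleus each to R241E replicates 1 and 2 and WT replicate 1, the WT mean of Ifitm3 was 724 CPM instead of 228 CPM. Ly6e was at 857 and 899 CPM with R241E, against 314, 362 and 755 CPM in WT (log2 fold change 0.82, SE 0.50, edgeR adjusted p = 0.978). Bst2 was at 185 and 321 CPM against 78.4, 90.6 and 172 CPM, without overlap but from 10 UMIs or fewer in each library. Ifi27l2a gave 5 and 5 UMIs with R241E and 0 in each WT library, at least 2.87-fold higher against a floor of 3 UMIs over the WT group.

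Mural cells, the pericytes and smooth muscle cells of vessel walls, had Ifitm3 at 277 and 550 CPM with R241E, against 169, 65.7 and 212 CPM in WT. The libraries did not overlap, as for 9.22% of all genes, and the unadjusted p was 4.42e-05, but the log2 fold change of 1.48 did not pass the test (SE 0.32, edgeR adjusted p = 0.130), and of 3862 genes 0% did so in the same direction, with 4.51% at an unadjusted p under 0.05. It was called by edgeR without R241E replicate 1 (adjusted p = 7.61e-05), without a filter on low counts (0.000512) and without the nuclei of highest doublet score (0.000118), and it was far from the threshold without R241E replicate 2 (1.00). Ifi27 stood at 150 and 152 CPM against 143, 95.6 and 56.2 CPM (log2 fold change 0.73, SE 0.34, edgeR adjusted p = 0.999). Ifitm2, at 75.1 and 138 CPM with R241E, against 169, 11.95 and 125 CPM in WT, overlapped between genotypes. The other genes were too low in mural cells to be tested. Ifi27l2a was at 37.5 and 26.0 CPM with R241E, against 0, 0 and 12.5 CPM in WT, without overlap, whereas Bst2 and Ly6e overlapped and reached at most 44.6 and 29.9 CPM.

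In fibroblasts none of the 5 genes tested was called by edgeR and none had an unadjusted p under 0.05, beside 0% of 5809 genes called higher and 7.11% at that unadjusted p. Ifitm3 was at 185 and 121 CPM with R241E, against 277, 73.2 and 193 CPM in WT, with a difference of -0.06 on the log2 scale (SE 0.40, adjusted p = 1.00 with edgeR). Ifi27 was at 182 and 140 CPM against 128, 102 and 162 CPM (log2 fold change 0.35, SE 0.27, edgeR adjusted p = 0.904), and Ifitm2 at 71.7 and 76.0 CPM against 96.0, 85.4 and 81.2 CPM. Bst2 was spread widely in WT, at 159.9, 4.07 and 30.9 CPM, beside 59.3 and 32.9 CPM with R241E, and Ly6e overlapped, at 63.5 and 47.2 CPM against 32.0, 44.7 and 85.0 CPM. The signs of the small differences of Ifitm3, Ly6e and Bst2 in fibroblasts turned under some of the alternatives.

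Whether the R241E effect differed from that in microglia was tested as a class by genotype term, with the mouse as a block, for 44 pairs of gene and class. It differed in 10 pairs, being smaller than in microglia in 9 of them and larger in 1. For Ifitm3 the log2 effect was smaller by 2.77 in border-associated macrophages (SE 0.58, edgeR adjusted p = 0.000475), where 0.504% of all genes had a smaller effect. The difference of Ifitm3 was -3.99 in fibroblasts (SE 0.40, edgeR adjusted p = 1.73e-19, background 0.656%), -4.52 in monocytes or neutrophils (SE 0.45, 3.03e-20, background 0.713%) and -2.54 in mural cells (SE 0.41, 1.67e-06, background 0.234%). In fibroblasts the effects of Bst2 (-2.30), Ifi27l2a (-3.85) and Ly6e (-1.39) were smaller as well, and in monocytes or neutrophils those of Ifi27l2a (-3.03) and Ly6e (-1.36). The exception was Ifi27 in astrocytes, whose log2 effect was 2.03 larger than in microglia (SE 0.35, edgeR adjusted p = 3.03e-05), in a comparison where 0.347% of genes had a larger effect. For Ifi27 in oligodendrocytes the difference of 1.04 did not pass the test (SE 0.30, edgeR adjusted p = 0.0911), but it was called without WT replicate 1 (0.0367), without WT replicate 3 (0.00639), without the filter (0.0414) and without the nuclei of highest doublet score (0.0395).

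The terms for Ifi27 in astrocytes and for Ifitm3 in fibroblasts, monocytes or neutrophils and mural cells were called with each library left out in turn. That of Ifitm3 in border-associated macrophages was lost in edgeR without R241E replicate 1 (adjusted p = 0.181), that of Bst2 in fibroblasts without R241E replicate 2 (0.138) and WT replicate 1 (0.867), and that of Ifi27l2a in fibroblasts without WT replicates 1 (0.152) or 3 (0.401). The terms for Ly6e in fibroblasts and in monocytes or neutrophils and for Ifi27l2a in the latter were each lost without 4 or more of the 5 libraries in turn, with adjusted p-values up to 0.978, and without a filter on low counts.

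In WT mice each gene had its own order of classes. Ifitm3 was highest in monocytes or neutrophils, at 908 ± 188 CPM (SD, n = 3), and no other class reached these values in any WT library. It was followed by endothelial cells, fibroblasts and mural cells, which overlapped with each other. Ifitm2 followed a like order, with 261 ± 60.9 CPM in monocytes or neutrophils ahead of endothelial cells, mural cells and fibroblasts. Ly6e was highest in lymphocytes, at 1147 ± 556 CPM, which overlapped with monocytes or neutrophils at 928 ± 165 CPM. For Bst2 and Ifi27l2a every class overlapped with the next in WT. For Ifi27, lymphocytes (135 ± 123 CPM), fibroblasts (131 ± 30.4 CPM) and the classes after them overlapped, and the single gap between neighbours was below border-associated macrophages (86.3 ± 11.4 CPM). With R241E the order changed in that lymphocytes stood alone at the top for Ifi27l2a and Bst2, endothelial cells for Ifitm3, and tanycytes (275 ± 80.9 CPM, SD, n = 2) and oligodendrocytes (226 ± 49.1 CPM, SD, n = 2) held the highest means for Ifi27.

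The ratio between UMIs of the overlapping genes on chromosome 12 was read across classes, since within a class it also depends on how well each gene is captured. For every 100 UMIs of Ifi27 there were 102 of Ifi27l2a in R241E microglia and 3.32 in WT microglia, summed over libraries. In oligodendrocytes the ratio was 20.3 with R241E and 0 with WT, in astrocytes 5.82 and 0, and in fibroblasts 20.0 and 12.7. Ifi27 was present in WT oligodendrocytes with 110 UMIs and in WT astrocytes with 36 UMIs while Ifi27l2a was at 0.

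**Figure D4:**
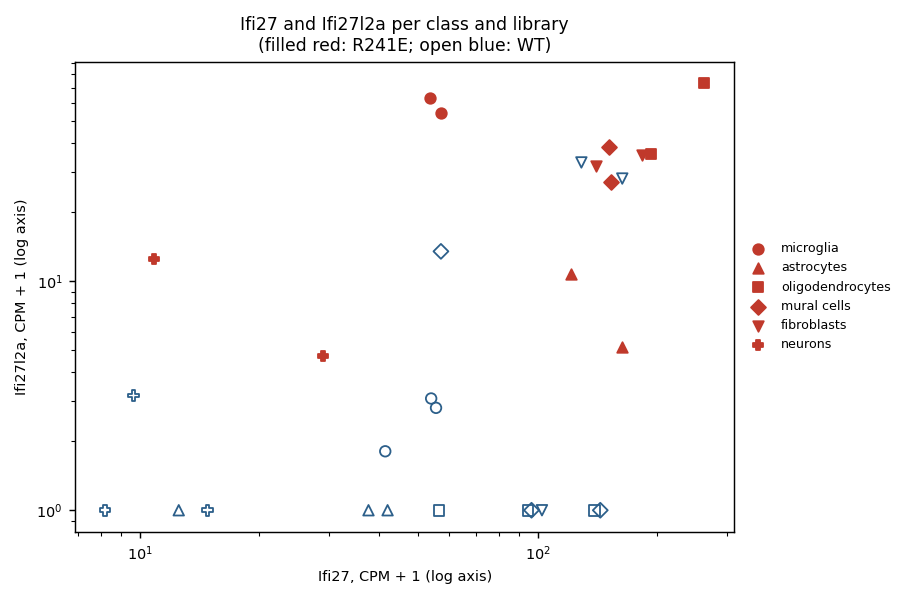
Ifi27 (horizontal) and Ifi27l2a (vertical), each as CPM + 1 on a log axis, with 1 point per library for 6 cell classes, filled red for R241E and open blue for WT. R241E microglia lie above WT microglia at nearly the same Ifi27 level, whereas R241E astrocytes lie mainly to the right of WT astrocytes.

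Across the 45 sums of a class and a library, the genes with the profile most like each of the 6 were sought by Spearman's rho among 12490 genes. These points share libraries and differ in depth, so the values are a description. The leading genes were Axl (rho 0.90), Emp3 and Samd9l for Ifitm3, and Emp3 (0.80), Axl and Ier2 for Ifitm2. For Ly6e they were Sp110 (0.90), Slfn8 and Adcy7, for Bst2 Rnf213 (0.89), H2-K1 and B2m, and for Ifi27l2a H2-D1 (0.83), Irf9 and Usp18. The closest gene to Ifi27 was Crim1, with a rho of 0.68, followed by Stard13 and Sorbs3. Among the 6 genes themselves Ifitm2 and Ifitm3 were most alike (0.78), and Ifi27 and Ifi27l2a had a rho of 0.22.

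Related genes in microglia were read from lists of gene names, beside 6.04% of all genes called higher and 3.25% called lower. Of 7 other genes of the Ifitm and Ifi27 families 1 had enough UMIs, Ifitm10, and it fell (log2 fold change -1.18, SE 0.12, edgeR adjusted p = 8.12e-06). Of 14 relatives of Ly6e 4 were tested and 1 was called, Ly6a, another lipid-anchored surface protein (log2 fold change 4.01, SE 0.51, edgeR adjusted p = 7.22e-05). Of 11 other membrane-linked restriction factors 8 were tested and 3 rose: Rsad2, which encodes viperin (log2 fold change 5.60, SE 0.38, edgeR adjusted p = 6.61e-08), Lgals3bp (3.11, SE 0.23, 2.41e-07) and Ncoa7 (0.45, SE 0.13, 0.0464), the median over the 8 being 0.38.

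All 28 genes of the study's interferon list were called higher in microglia, with a median log2 fold change of 4.18, and the smallest p-values were those of Ifi204, Nlrc5 and Oas2.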

How the data were processed

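Single-nucleus RNA-seq was read from 5 libraries, 2 R241E and 3 WT, grouped by the sample labels, each of 1 mouse. The deposited values are raw UMI counts, made by the authors with Cell Ranger on mm10, neither normalised nor pooled across mice. Whether introns were included or strand was used in counting is not given in the sources used here. Nuclei with at least 200 and under 4500 genes, under 10000 UMIs and under 5% mitochondrial UMIs were kept. They were clustered with scanpy 1.11.5 (3000 variable genes without the 6 genes described, 30 components, resolution 1) and named from markers. Scrublet called 0.494% of nuclei as doublets, too few to have worked, so none were removed, and leaving out the 158 highest scores was an alternative.

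UMIs were summed per library and class, and where each of the 5 libraries held 10 or more nuclei of a class, it was tested with edgeR 4.0.16 (TMM, filterByExpr, quasi-likelihood, Benjamini-Hochberg over all genes, adjusted p under 0.05) in R 4.3.3. The study itself tested single nuclei, which treats nuclei as replicates. Interaction terms and exact permutation tests of shares are described with their results. Named genes were the 6, the 3 genes most like each by Spearman's rho, and called or leading genes of fixed lists. 1 of these lists is not reported here. Genes, lists and tests were chosen with earlier results of these data known. The fits were tested on simulated data. Alternatives were DESeq2 1.42.0, limma-voom (limma 3.58.1), DESeq2 size factors, no filter, a replicate block, each library left out, limits lifted, thinning, subtraction of the microglial share and clustering with or without interferon genes.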

Additional observations from a re-analysis of the deposited data

Results flagged for a closer look

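The genotype effect differed from that in microglia in 10 of the 44 pairs of gene and class, by the class by genotype term of edgeR, and no explanation was tested. In astrocytes the log2 effect on Ifi27 was larger than in microglia by 2.03. For Ifitm3 the difference from microglia on the log2 scale was -2.77 in border-associated macrophages, -3.99 in fibroblasts, -4.52 in monocytes or neutrophils and -2.54 in mural cells. In CPM, R241E minus WT for Ifitm3 was 49.4 in microglia, 80.5 in border-associated macrophages and 265 in mural cells. It was negative in fibroblasts and in monocytes or neutrophils. In fibroblasts the log2 difference from microglia was -2.30 for Bst2, -3.85 for Ifi27l2a and -1.39 for Ly6e. In monocytes or neutrophils it was -3.03 for Ifi27l2a and -1.36 for Ly6e.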

How the results depend on the processing

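In microglia 4 genes were called under all alternatives, and in fibroblasts, monocytes or neutrophils, neurons and tanycytes 0. In astrocytes 1 gene was called, but 0 with limma-voom or thinning and 2 without the filter, with 0 to 1 when single libraries were left out. In border-associated macrophages the count of 2 became 0 with DESeq2 or thinning (0 to 2 with libraries left out). In mural cells the count of 0 became 1 without the filter, with the replicate block or without the top doublet scores (0 to 1). In oligodendrocytes the count of 1, Ifi27l2a with no WT UMI, became 0 with limma-voom or thinning and 2 without the filter or with the replicate block (0 to 2). The 10 differences from microglia became 6 to 9 when libraries were left out, and terms not called at first were gained for Ifi27 in oligodendrocytes (4 of 9 settings), Ifitm3 in neurons (2 of 9, from 4 UMIs in all) and Bst2 in monocytes or neutrophils (1 of 9). Where 1 R241E library was left, it was assumed to vary like the other groups, and the cause of these changes was not tested.

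Directions turned for small differences that were not called. In fibroblasts, Bst2 (0.15) went to -0.41 with DESeq2, -0.31 with the replicate block, -0.11 without the top doublet scores and -0.56 to 1.46 with libraries left out. Ifitm3 (-0.06) went to 0.14 with limma-voom, 0.038 without the filter, 0.054 with the replicate block, 0.91 after thinning and -0.49 to 0.27 with libraries left out, and Ly6e (-0.02) to 0.010 with DESeq2, 0.068 without the filter, 0.43 with the replicate block, 0.015 with limits lifted and -0.27 to 0.51. In monocytes or neutrophils Ifitm3 (-0.43) went to 0.24 after thinning and Ly6e (0.29) to -0.43 to 0.82 with libraries left out, as did Ifitm2 in mural cells (0.19, -0.47 to 0.65) and its share of microglia (0.186 points, -0.0649 to 0.437). Of the recomputed levels 554 moved by less than 1 SD and 22 by more, 17 of these with limits lifted.

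Over all genes of microglia, the 769 higher and 413 lower became 1251 and 857 with the replicate block, 481 and 227 after thinning, 551 and 268 with DESeq2 and 412 to 981 higher with libraries left out. The number of genes called higher ranged over the alternatives from 0 to 144 in astrocytes (23), from 5 to 59 in border-associated macrophages (32), from 1 to 42 in oligodendrocytes (13), from 0 to 68 in fibroblasts (0), from 0 to 257 in neurons (1), from 0 to 10 in monocytes or neutrophils (1), from 0 to 11 in tanycytes (1) and from 0 to 3 in mural cells (0). Mouse numbers in the labels name samples only. The correlation of deviations was 0.0996 between mice numbered 1 and -0.0183 between mice numbered 2, and besides the calls given here the block changed none. Few nuclei limit the endothelial, lymphocyte and tanycyte values, and low UMI counts those of Ifitm2.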
